A study of Mus musculus with 6 samples.

Results

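Probes for 5 marker genes of glia and microglia were followed in the neocortex of null mutant mouse embryos described as synaptically silent. The genes are Slc1a3, Gja1, Olig2, Mbp and C1qb. They were picked by name, with earlier results of these arrays known, so their ratios are given as descriptions without a test. All probes that the platform annotation gives to 1 of these symbols alone were taken, which made 5 of the 6041 genes named on the array and 7 of its 6856 probes. Slc1a3 and Mbp have 2 probes each, kept apart here, and each of the other genes has 1. Of the 7 probes, 5 had a value on all 6 arrays.

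Each array compared neocortex RNA of 1 null mutant embryo of embryonic day 14 with a pool of RNA from 6 wild-type animals, both on a C57BL/6 background. The mutant was labelled with cy3 on replicates 1, 2 and 3 and with cy5 on replicates 4, 5 and 6. Per the labels the mutants are biological replicates. There is no control sample beside the pool, so the spread between wild-type animals is not seen. The neocortex was taken whole, and in such bulk RNA fewer cells of a type and less RNA per cell cannot be told apart.

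Radial glia are the stem cells of the embryonic cortex, and they carry several genes that mature astrocytes keep. Slc1a3 encodes the glutamate transporter GLAST, which clears glutamate at the membrane of radial glia and astrocytes, and Gja1 encodes connexin 43, the gap junction protein that couples these cells. Olig2 is a transcription factor of progenitors that give rise to oligodendrocytes, mostly in ventral forebrain at this age. Mbp encodes myelin basic protein, which compacts the myelin sheath and is made in quantity mostly after birth, while longer transcripts of the same locus are also made in neurons. C1qb encodes the B chain of complement C1q, a secreted protein made in brain chiefly by microglia, the resident macrophages, which enter the embryonic cortex from the yolk sac.

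Values are log ratios, taken to be on base 2 and to have the mutant in the numerator, so that a value above 0 means more RNA in the mutant. The deposited table states neither base nor direction, and the direction is not settled. If replicates 1 to 3 ran the other way from replicates 4 to 6, as would happen had both orientations been computed as cy5 over cy3, their signs would turn. Xist, the RNA that coats the inactive X chromosome in females, lay at -3.17 and -2.58 on replicates 5 and 6 and between 0.24 and 0.71 on the other arrays. Signs below are those of the table, and means with replicates 1 to 3 turned stand beside them. The arrays held 4396 to 5678 values. Their standard deviation over probes ran from 0.35 on replicate 2 to 1.09 on replicate 3, with 0.62 on replicate 4. Replicates 3 and 4 stood apart. They correlated with each other across probes at a Pearson's r of 0.59, despite opposite labelling, and at -0.37 to -0.08 with the other arrays, so results are also given without both. Because the arrays differed in width, values are also placed among all values of their own array.

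**Figure D1:**
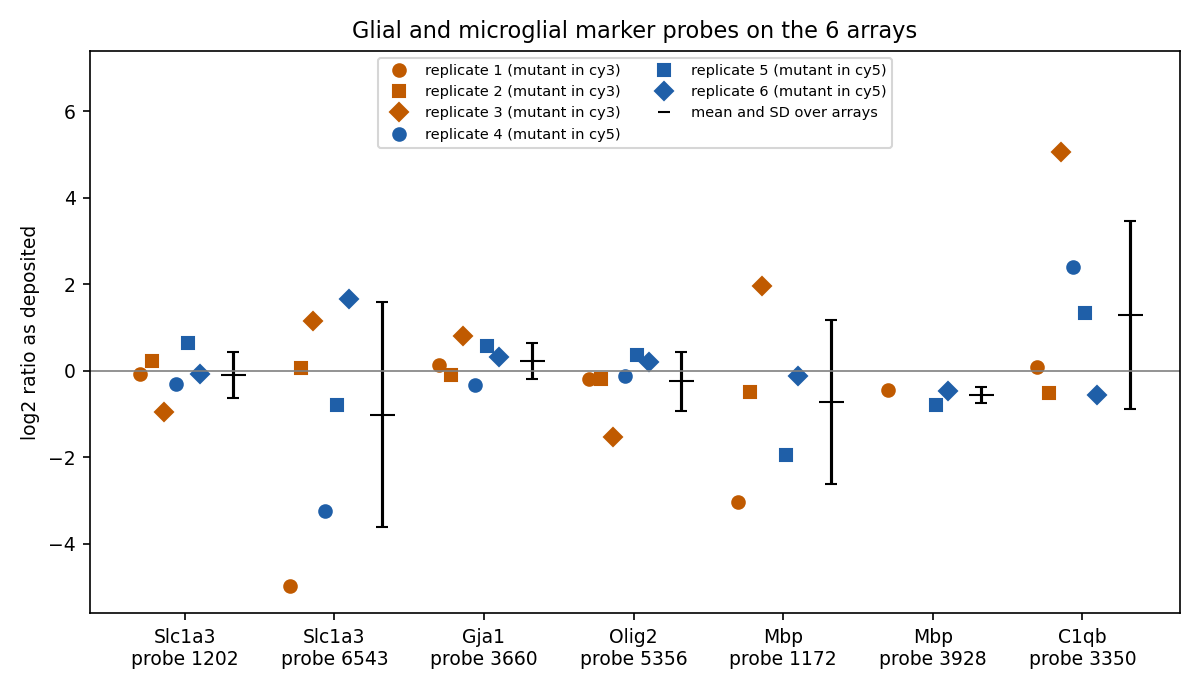
Log2 ratios as deposited (vertical axis) of the 7 marker probes on each array, with the replicate shown by marker and the dye of the mutant by colour, and the mean and SD over arrays in black. Probe 6543 of Slc1a3, probe 1172 of Mbp and C1qb have SDs of 2.60, 1.90 and 2.17, while Gja1 stays between -0.32 and 0.81.

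For Slc1a3 the 2 probes gave different pictures. Probe 1202 lay near 0, at -0.07, 0.22 and -0.94 on replicates 1 to 3 and -0.30, 0.65 and -0.07 on replicates 4 to 6. Its mean was -0.08 ± 0.53 (SD, n = 6), and the values of the 2 dye orientations overlapped. Probe 6543 lay at -4.97, 0.07 and 1.16 on the 3 arrays with a cy3 mutant and at -3.25, -0.80 and 1.67 on those with a cy5 mutant. Its mean was -1.02 ± 2.60 (SD, n = 6), and each orientation held both strongly negative and positive values. Only 3 of 5210 probes on replicate 1 and 3 of 4396 on replicate 4 lay lower, yet on replicate 6 only 29 of 5676 lay higher. Of the 3763 probes with a value on every array, 4 had an SD at least as large, probe 6543 included. The mean of this probe rests on replicate 1, without which its estimate was -0.09. With replicates 1 to 3 turned, the means were 0.18 ± 0.50 for probe 1202 and 0.23 ± 2.82 for probe 6543 (SD, n = 6).

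Set against each other on each array, probe 6543 minus probe 1202 of Slc1a3 came to -4.90, -0.15 and 2.10 on replicates 1 to 3 and to -2.95, -1.44 and 1.74 on replicates 4 to 6. The pair was close on replicate 2 alone, and its sign was shared on 3 of 6 arrays. The mean difference was -0.93 ± 2.72 (SD, n = 6). For scale, 110 genes have exactly 2 probes, and 31 such pairs had both values on all 6 arrays. In those 31 pairs the mean size of the difference had a median of 0.56. For Slc1a3 it was 2.21, the largest of the 31. On replicates 4 and 5 no other pair with values differed by as much, among 45 and 74 pairs. Across the 6 arrays, with signs as deposited, the probes of Slc1a3 correlated at a Pearson's r of -0.13. This was close to the median of -0.05 over the 31 pairs. In its size, then, the disagreement for Slc1a3 stood at the end of these pairs, and in its correlation it stood near the middle. The reference table lists 1 RefSeq transcript of Slc1a3, and neither probe is annotated by that entry. The sources used here do not say which stretch of the transcript each probe reads.

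**Figure D2:**
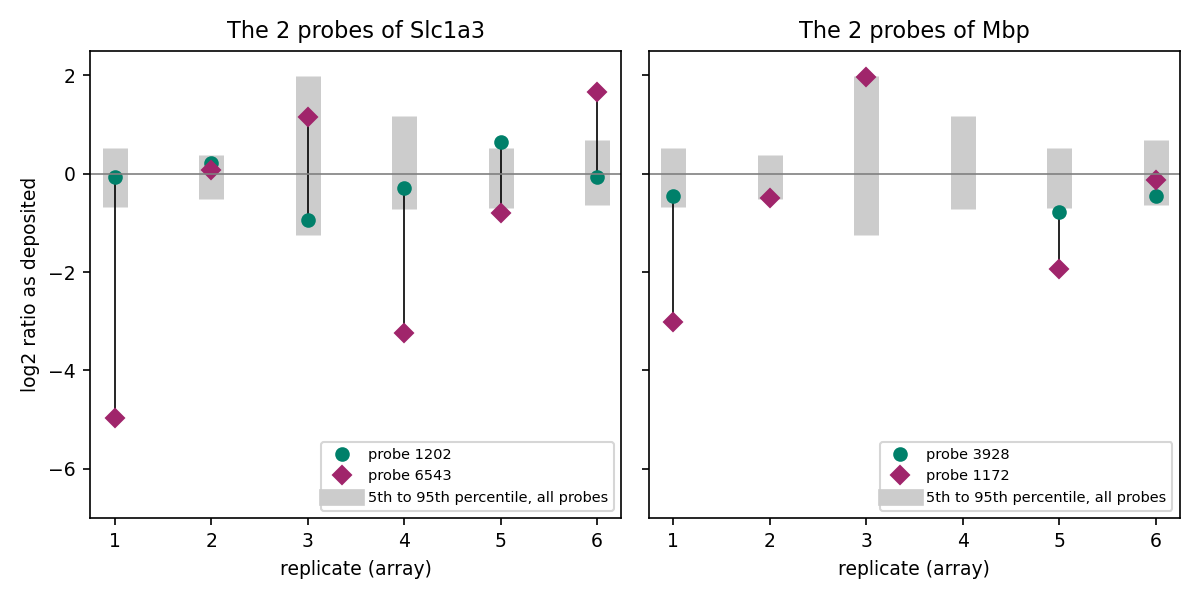
Log2 ratios as deposited (vertical axis) of the 2 probes of Slc1a3 and of Mbp on each array, joined by a line where both have a value; grey bars run from the 5th to the 95th percentile of all probes on that array. Probe 6543 of Slc1a3 leaves the grey bar on replicates 1, 4, 5 and 6, and probe 1202 leaves it on replicate 5 alone.

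Gja1 was the steadiest of the probes with 6 values. It lay at 0.14, -0.09 and 0.81 on replicates 1 to 3 and at -0.32, 0.57 and 0.32 on replicates 4 to 6. It was above 0 on 4 of 6 arrays, and the orientations overlapped. The mean of 0.24 ± 0.42 (SD, n = 6) was smaller than the spread between arrays, and it was 0.23 ± 0.28 (SD, n = 4) without replicates 3 and 4. With replicates 1 to 3 turned, it came to -0.05 ± 0.49 (SD, n = 6). Its highest place was on replicate 5, where 199 of 5678 probes lay higher. The other genes of the connexin and pannexin families gave little to set beside it. Of 8 such genes with a probe, 4 had no value on any array, among them Gjb6, the connexin 30 gene of mature astrocytes, and 2 could be fitted. Gjc1, the connexin 45 gene, ran from -2.80 on replicate 6 to 1.00 on replicate 3, and the pannexin gene Panx1 ran from -0.76 to 0.38.

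Olig2 lay low on replicate 3 only. Replicates 1 to 3 gave -0.19, -0.20 and -1.53, and replicates 4 to 6 gave -0.12, 0.36 and 0.22. All 3 cy3 values lay below all 3 cy5 values. The mean was -0.24 ± 0.67 (SD, n = 6). Without replicate 3 the estimate was -0.02, and without replicates 3 and 4 the mean was 0.05 ± 0.29 (SD, n = 4). With replicates 1 to 3 turned, 5 of 6 values lay above 0 and the mean was 0.40 ± 0.58 (SD, n = 6). On replicate 3, 57 of 4466 probes lay lower than Olig2. Beside it in the oligodendrocyte list, Mobp, a myelin protein gene, lay at -1.69 there, and Gpm6b, a membrane proteolipid gene that neurons express too, at -1.72. Other genes of this list lay above 0 on that array, with Aspa at 0.95, 1 probe of the transferrin gene Trf at 1.64 and 1 probe of Mbp at 1.97, so that 5 genes were above and 7 below 0. The low value on replicate 3 was not limited to oligodendrocyte genes: the neuronal list had a median of -0.78 on that array, against -0.24 over all genes. The part that this shared shift has in the Olig2 value was not tested. Olig1, the neighbouring factor of the same lineage, had no value on any array.

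Mbp also differed between its probes. Probe 1172 lay at -3.02, -0.49 and 1.97 on replicates 1 to 3, had no value on replicate 4, and lay at -1.94 and -0.12 on replicates 5 and 6. Of the 5 values 4 were negative, and replicate 3 was the exception. The mean was -0.72 ± 1.90 (SD, n = 5). Leaving out replicate 1 left an estimate of -0.15, and leaving out replicate 3 one of -1.39. With replicates 1 to 3 turned, the mean was -0.10 ± 2.06 (SD, n = 5). Probe 3928 had values on replicates 1, 5 and 6 alone, at -0.45, -0.78 and -0.45. The mean was -0.56 ± 0.19 (SD, n = 3), the smallest spread among the 7 probes, over fewer arrays and with no value on replicates 3 and 4. With replicate 1 turned, that mean became -0.26 ± 0.64 (SD, n = 3). It had too few values in 1 orientation to be fitted.

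On the arrays with both, probe 3928 minus probe 1172 of Mbp was 2.57 on replicate 1, 1.16 on replicate 5 and -0.33 on replicate 6. The mean difference was 1.13 ± 1.45 (SD, n = 3), within the spread between arrays. Both probes were below 0 on all 3 of these arrays. On replicate 1, 4 of 63 gene pairs differed by at least as much as Mbp, and on replicate 6, 34 of 74 did. The reference table lists 17 RefSeq transcripts of Mbp, of which 8 are curated. Probe 3928 is annotated by 1 of them, while the entry that annotates probe 1172 is not among them. Whether the probes read different transcripts was not tested.

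C1qb had the largest positive ratios of the 7 probes. It lay at 0.10, -0.52 and 5.06 on replicates 1 to 3 and at 2.41, 1.33 and -0.57 on replicates 4 to 6. The mean was 1.30 ± 2.17 (SD, n = 6), smaller than the spread, and both orientations held high and low values. Without replicates 3 and 4 it was 0.09 ± 0.88 (SD, n = 4), and without replicate 3 alone the estimate was 0.42. With replicates 1 to 3 turned it was -0.24 ± 2.59 (SD, n = 6).

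Read within each array, C1qb stood at the top on 3 arrays and near the bottom on 2. On replicate 3, 12 of 4466 probes lay higher, on replicate 4, 16 of 4396, and on replicate 5, 9 of 5678. In multiples of each array's median absolute deviation, these values lay 8.25, 7.27 and 6.81 from 0. In these multiples the value on replicate 5, much smaller in log2 units, was about as far out as those on the wider replicates 3 and 4. Counted over both signs it was less far out. With C1qb included, 67 of 5678 probes on replicate 5 lay at least as far from 0. On replicates 3 and 4 it was 13 of 4466 and 26 of 4396. On replicates 2 and 6, by contrast, only 263 of 5183 and 359 of 5676 probes lay lower.

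The other chains of C1q went with the B chain on some arrays and against it on others. C1q is built from A, B and C chains, and the reference table places their 3 genes next to each other. C1qa had no value on replicates 1 and 3 and lay at 0.17, 1.24, -0.34 and 1.41 on replicates 2, 4, 5 and 6. C1qc lay at -0.60, -0.42 and -1.14 on replicates 1 to 3 and at 0.07 and 0.26 on replicates 5 and 6, with no value on replicate 4. On replicate 3, where C1qb was at 5.06, C1qc was below 0. On replicate 5, where C1qb was at 1.33, C1qc was near 0 and C1qa below it. On replicate 2 C1qb and C1qc were close to each other and below 0. On replicate 4 both C1qa and C1qb were above 0. On replicate 6 C1qa and C1qc were above 0 and C1qb was below.

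**Figure D3:**
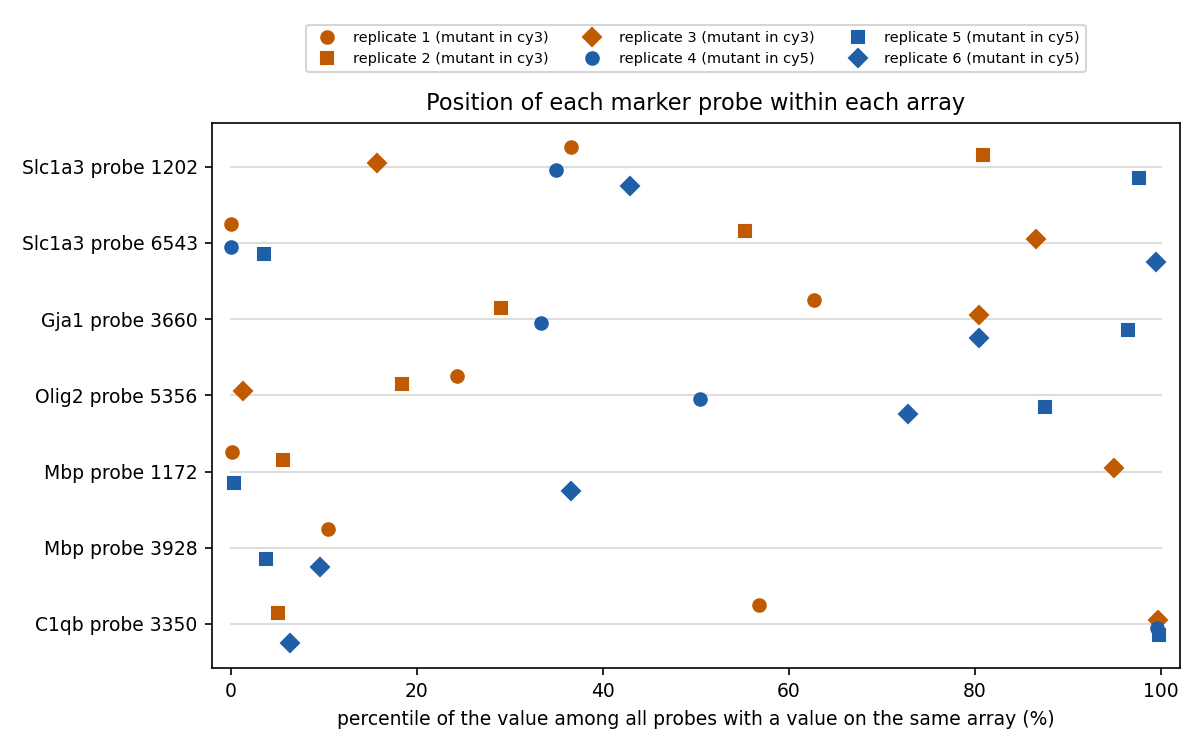
Position of each marker probe among all probes with a value on the same array, as a percentile (horizontal axis), with replicates offset vertically within a row. Probe 6543 of Slc1a3 reaches both ends of the scale, probe 1172 of Mbp runs from 0.17% to 94.9%, and C1qb from 5.07% to above the 99th percentile on replicates 3, 4 and 5.

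The wider lists of cell type genes put these probes in context. They held genes chosen by their textbook role, and the estimates are those of limma with the dye orientation as a term, averaged per gene. Of 20 astrocyte and radial glia genes fitted, 0 passed an adjusted p of 0.05 in limma. The counts were also 0 of 13 oligodendrocyte genes and 0 of 11 microglia and macrophage genes. Over all 4958 probes tested 0% passed, under the signs as deposited and with replicates 1 to 3 turned, and without replicates 3 and 4 it was 0.0212% of 4728 probes. At an unadjusted p under 0.05 the lists had 1, 0 and 1 genes, namely Tnc, through 1 of its 2 probes, and Lcp1. Under that limit lay 1.77% of all probes and, by gene, 82 of 4414. Turning replicates 1 to 3 gave 1, 0 and 1 genes, namely Atp1b2 and C1qc. It gave 4.6% of all probes and 192 of 4414 genes. Without replicates 3 and 4 it was 2 of 20, 2 of 13 and 4 of 11 genes. Of all probes 13.6% lay under that limit there. The list genes were Glul and Gja1, then Mbp and Erbb3, then Cd53, Lcp1, Tyrobp and Sall1. Gja1 and Mbp are marker genes chosen with earlier results known, so their place in these counts is no support. Without replicates 3 and 4, 0 genes of these lists passed an adjusted p of 0.05.

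Astrocyte and radial glia genes had 8 estimates above 0 and 12 below, with a median of -0.05 against -0.03 over all genes. Turning replicates 1 to 3 put 12 above and 8 below 0, with a median of 0.04 against 0.02. Without replicates 3 and 4, 8 of 20 genes lay above 0, with a median of -0.07. Over all genes it was then 2664 of 4220, with a median of 0.05. Apart from the marker genes, the highest as deposited were Nfia and Hes1, transcription factors of glial fate and of progenitor maintenance. They stood at 0.33 and 0.30, at 0.02 and -0.31 turned, and at -0.14 and 0.10 without replicates 3 and 4. The lowest were the sodium pump subunit gene Atp1b2 at -0.30 and Glul, glutamine synthetase, at -0.24, or 0.62 and 0.04 turned. Without replicates 3 and 4 they stood at -0.33 and -0.24. On replicate 1 probe 6543 of Slc1a3 was the lowest of 25 probes of this list, with Atp1b2 next at -1.65, and on replicate 4 the lowest of 21, with a probe of Tnc next at -0.77. On replicate 6 it was the highest of 24, with S100b next at 0.64. Thus probe 6543 lay outside the range of the other list members on these arrays. Of the other family members, Slc1a1, Slc1a4 and Slc1a5, with 4 probes among them, had values from -0.57 to 1.44. Slc1a2, the glutamate transporter GLT-1 of astrocytes, had values on replicates 1, 5 and 6 alone, at -0.18, -0.03 and -0.15.

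Oligodendrocyte genes split into 6 above and 7 below 0, with a median of -0.08. Turning replicates 1 to 3 put 8 above and 5 below 0, with a median of 0.08. As deposited the enzyme gene Aspa was highest at 0.29 and Mobp lowest after Mbp at -0.25. Turned, Aspa and Mobp stood at 0.08 and 0.37, and without replicates 3 and 4 at 0.10 and 0.09. Next highest as deposited were Erbb3 at 0.19 and Nkx2-2 at 0.13. They stood at 0.28 and -0.02 turned, and at 0.19 and 0.09 without replicates 3 and 4. Without replicates 3 and 4, 10 of 13 genes lay above 0 and the median was 0.09. Over all genes this step took the share above 0 from 1904 of 4414 genes to 2664 of 4220. Probe 1172 of Mbp was the lowest probe of the list on replicates 1 and 5 and the highest on replicate 3. Olig2, in contrast, stayed within the list on every array.

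Microglia and macrophage genes had 2 estimates above 0, those of C1qb and Sall1, and 9 below, with a median of -0.11, where 1904 of 4414 genes lay above 0 overall. With replicates 1 to 3 turned, 5 lay above 0 and 6 below, with a median of -0.0001. Over all genes 2341 then lay above 0 and 2073 below. Without replicates 3 and 4, 4 of 11 lay above, against 2664 of 4220 over all genes. Sall1, a transcription factor of microglia that cortical progenitors also express, stood at 0.15, at -0.0001 turned and at 0.24 without replicates 3 and 4. Runx1 came next at -0.01, or -0.08 turned and 0.14 without replicates 3 and 4. The lowest as deposited were Lcp1, an actin-bundling protein of blood cells, Tyrobp, a signalling adaptor, and Coro1a, an actin regulator. They stood at -0.62, -0.36 and -0.31, at 0.07, -0.28 and 0.16 turned, and at -0.74, -0.36 and -0.02 without replicates 3 and 4. C1qb was the highest probe of its list on replicates 3, 4 and 5. The next were Spi1, the macrophage transcription factor, at 2.41, Cd52 at 1.68 and Laptm5 at 0.46. On these 3 arrays the median of the list was 0.01, 0.01 and -0.24, against -0.24, -0.13 and 0.04 over all genes. Of the list's genes with a value there, 6 of 11, 5 of 10 and 7 of 20 lay above 0, against 1643 of 3960, 1579 of 3926 and 2796 of 5034 over all genes. On replicate 2 C1qb was the lowest probe of the list.

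**Figure D4:**
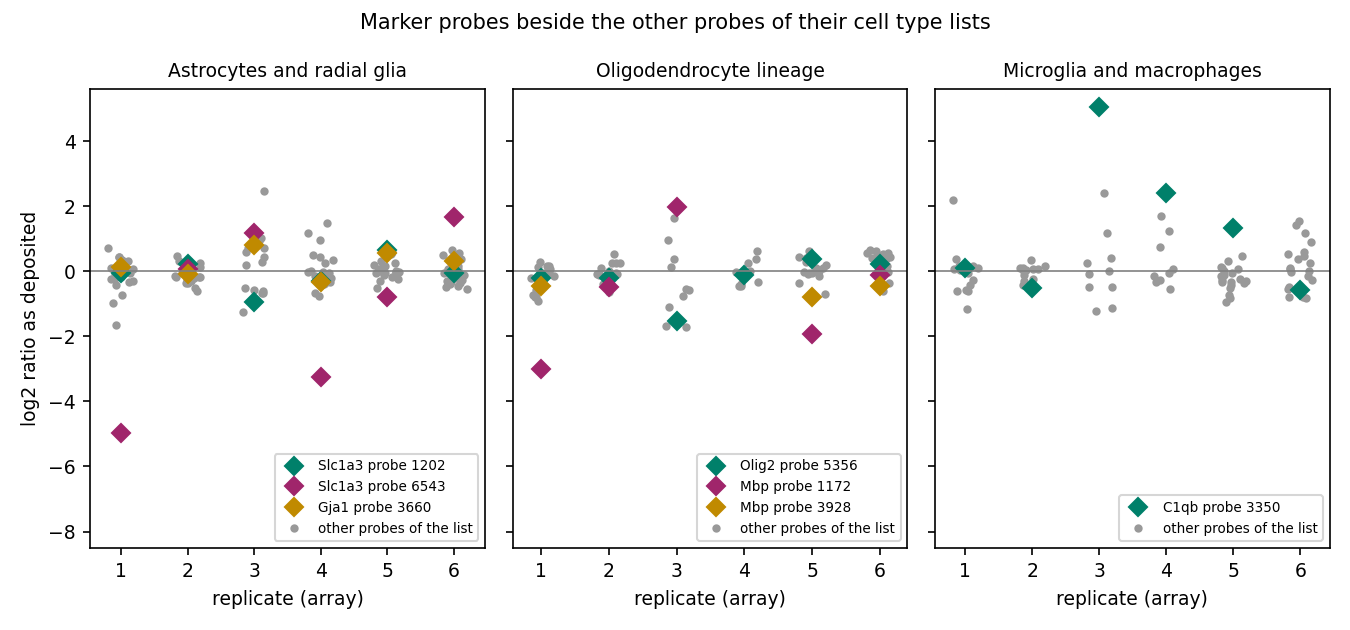
Log2 ratios as deposited (vertical axis) by array for the marker probes (diamonds) and for the other probes of their cell type lists (grey points, spread sideways for legibility). C1qb lies above all other microglial probes on replicates 3, 4 and 5, and probe 6543 of Slc1a3 lies below all other astrocyte and radial glia probes on replicates 1, 4 and 5.

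Several genes that define these cell types had no value on any array. They were Gfap, Aqp4 and Gjb6 of mature astrocytes, Mog, Mal, Cnp and Olig1 of the oligodendrocyte lineage, and Cx3cr1, Ptprc, Trem2, Itgb2 and Adgre1, with 3 others, of microglia and macrophages. As shares these were 10.7%, 19.0% and 24.2% of the genes with a probe, against 11.0% over all genes. The share was 0% of 17 neuronal genes, 0% of 18 vessel and meninges genes and 9.1% of 11 red cell genes. Why a value is missing is not stated in the sources used here. The table holds ratios and no intensities, so whether a marker was present above background cannot be read from it.

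Markers of blood and vessels also varied between arrays. Of 11 red cell genes with a probe, 8 and 7 had a value on replicates 3 and 4. Their median was 0.24 and 0.22 there, against -0.24 and -0.13 over all genes, and -0.27 to 0.04 on the other arrays. Of 18 vessel and meninges genes with a probe, 12 had a value on replicate 3. The median was 0.59 on replicate 3 and -0.19 to 0.23 elsewhere. The part of these cells in the C1qb values was not tested.

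Ordered by mean ratio as deposited, C1qb was followed by Gja1, probe 1202 of Slc1a3, Olig2, probe 3928 and probe 1172 of Mbp and probe 6543 of Slc1a3, and no neighbours in this order differed by more than the larger of their SDs. The order depends on the direction: with replicates 1 to 3 turned, Olig2 came first at 0.40 and C1qb next to last at -0.24, before probe 3928 at -0.26. Across the 6 arrays, probe 1202 of Slc1a3 and Olig2 correlated at a Pearson's r of 0.87, or 0.53 over the 4 arrays without replicates 3 and 4. C1qb correlated with Olig2 at -0.78 over 6 arrays and 0.56 without that pair. Over the same 4 arrays Gja1 correlated with Olig2 at 0.93 and with C1qb at 0.76, and probe 1202 with C1qb at 0.80 and with Gja1 at 0.51, against -0.42, 0.46, -0.70 and -0.21 over all 6. Probe 6543 correlated with the other 4 complete probes at -0.29 to 0.50 over the 4 arrays. The coefficients over 6 arrays share the wide replicates 3 and 4, those over 4 arrays rest on few points, and both describe these arrays only. All hold for the signs as deposited. They would change with replicates 1 to 3 turned, for which they were not computed.

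The probes most like each marker across the 6 arrays came from many kinds of genes. The nearest to probe 1202 of Slc1a3 were Hexa, Pltp and Pknox1, with Pearson's r of 0.986 to 0.998. Those of probe 6543 were Serinc1, Jmy and Fxr1, at 0.97 to 0.98, with much smaller ratios: Serinc1 ran from -0.53 to 0.25. Nearest to Gja1 were Plcb1, Capzb and Notch4, at 0.94 to 0.97. Olig2 was nearest to Mink1, Scamp5 and Dcx, each at an r of 0.995 or more, and Dcx, the doublecortin gene of migrating neurons, lay at -1.27 on replicate 3. The nearest to C1qb were Tnip1, Sptlc2 and Acvr2b, at 0.98 to 0.99, with 3.21, 1.07 and 2.93 on replicate 3. Such likeness was common for some markers and rare for others. Of 3481 named probes with 6 values, 442 had an r over 0.9 with Olig2 and 282 with probe 1202, against 85 with C1qb, 12 with Gja1 and 5 with probe 6543. Opposite courses were most common for C1qb. An r under -0.9 was found for 327 probes with C1qb, 79 with Olig2, 38 with probe 1202, 14 with Gja1 and 11 with probe 6543.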

How the data were processed

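The deposited values were log ratios of the 2 channels of each array, made by the authors and taken here as log2. How they were scanned, background-corrected and normalized, their base and their direction are not stated in the sources used here. Array means lay within 0.01 of 0. The platform annotation gave 6269 probes a single gene symbol, and only these were named. The members and gene lists were chosen with earlier results of these data known. The mutated gene is not reported here.

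Probes with 2 or more values in both dye orientations entered a fit with limma 3.58.1 in R 4.3.3, with the intercept against 0, with dye orientation as a term, two-sided, with Benjamini-Hochberg adjustment. This kept 4958 probes, 6 of the 7 marker probes among them. The fit was first run on simulated data with noise independent between probes and between arrays. Such data check the code and cannot show how the fit behaves on these correlated arrays. Turning replicates 1 to 3 exchanges the mutant and dye terms apart from scale. List estimates average the fitted probes of a gene. Named list genes were taken from the 3 highest and 3 lowest of a list, and others were chosen after their values were seen. Likeness is Pearson's r over the 6 arrays. All correlations use the signs as deposited and were not computed with replicates 1 to 3 turned. With intensities not used here, dim probes could not be removed, and batches are unknown. The number of arrays limits the precision.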

Additional observations from a re-analysis of the deposited data

Results flagged for a closer look

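A value on 1 array lying far from the other 5 was looked for in 17 sets of values, namely the marker probes and the probe differences with enough arrays and the list medians, and was found in 3. The cut-off would flag about 1 in 20 sets of independent values with equal spread. These arrays differ in width, replicate 3 being the widest, and the sets share genes. That rate therefore does not hold here, and no excess over chance can be read from the count. Olig2 lay at -1.53 on replicate 3, with the next lowest array at -0.20. The median of the astrocyte and radial glia list was 0.36 on replicate 3, with the next highest at -0.01. The median of the microglia and macrophage list was -0.24 on replicate 5, with the next lowest at 0.01, on the array where C1qb stood at 1.33.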

How the results depend on the processing

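No probe passed an adjusted p of 0.05 in limma in the fit as deposited or when any replicate was left out, 1 probe passed without replicates 3 and 4, and 2 passed with array weights. The number of probes with an unadjusted p under 0.05 was 88, and 228 with replicates 1 to 3 turned, 185 with arrays scaled to a common width, 51 over complete probes, 600 with array weights, 642 without replicates 3 and 4, and 49 to 154 with 1 replicate left out. The difference between the probes of Mbp turned from 1.13 to -0.58 with replicates 1 to 3 turned, a shift larger than its SD. The remaining 14 of 15 alternatives for probe differences, all 70 for marker estimates and all 110 for list medians moved the value by less than 1 SD over the arrays. These SDs are wide, so a value within 1 SD can still be small or change sign: with array weights C1qb stood at 0.05, down from 1.30, and Olig2 turned from -0.24 to 0.01. Leaving out 1 replicate gave 0.42 to 1.82 for C1qb, -1.63 to -0.09 for probe 6543 of Slc1a3, -0.22 to 0.09 for probe 1202, 0.11 to 0.37 for Gja1, -0.36 to -0.02 for Olig2 and, where it could be fitted, -1.39 to -0.15 for probe 1172 of Mbp. The probe differences without replicates 3 and 4 were added after the data were seen. No paired analysis was possible because all mutants were compared with 1 pool.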
